A study of Mus musculus with 35 samples.

Results

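A set of 10 genes of iron storage, uptake and export was followed in CD45+ve microglia of the developing and adult mouse brain. They were Fth1, Ftl1, Tfrc, Slc11a1, Slc11a2, Slc40a1, Cp, Hmox1, Ncoa4 and Ireb2, chosen by name as 10 of the 55401 genes in the count table, and all 10 passed the filter on low counts that left 17612 genes for testing. mRNA was sequenced from whole-brain CD45+ve cells of wild-type C57BL/6 mice of both sexes, taken on postnatal day 6 (P6), on postnatal day 15 (P15) or at 8 weeks, with 1 library per mouse. No mouse was treated, and CD45 marks all leukocytes, so the immunopanning that captured the cells also admits blood-derived cells. The comparisons used 34 mice, with 4 females and 6 males at P6, 6 females and 6 males at P15, and 6 females and 6 males at 8 weeks. A further female of the youngest age, the mouse labelled P6 female 6, was left out and added back as an alternative. The study removed 1 mouse as an outlier in multidimensional scaling, which its methods do not name.

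Cells take up iron mainly as transferrin, which the transferrin receptor carries into endosomes, where the divalent metal transporter moves the metal into the cytosol. Surplus iron is stored inside ferritin, a shell built from heavy and light chains, and leaves the cell through ferroportin, the only known mammalian iron exporter. Microglia and other macrophages also recover iron from engulfed cells and haem. Iron-regulatory proteins adjust this traffic after transcription, by binding a hairpin called the iron-responsive element. In a 5′ UTR the bound hairpin blocks translation, and in a 3′ UTR it protects the mRNA from decay, so the mRNA levels below do not give protein levels.

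Hairpins of this kind are shown because 1 member, Ireb2, encodes a protein that binds them and others are regulated through them. The representative GENCODE M21 transcript of each member was searched on its own strand for a 28-base stretch with an unpaired C, 5 paired bases, the loop CAGTGN and the 5 pairing bases. Of the 10 members, 4 held such a match in the transcript searched. Of the 21901 genes with a protein-coding transcript, 1.34% held a match in any of these transcripts, so the shares have unlike bases. Because members known to be regulated through the hairpin were in the set, their count is not a result of these data. The capitals below mark the loop, and coordinates are GRCm38.
Fth1 5′ UTR (chr19:9982733-9982760, + strand): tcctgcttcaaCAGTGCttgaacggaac
Ftl1 5′ UTR (chr7:45459779-45459806, - strand): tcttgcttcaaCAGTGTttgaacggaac
Slc40a1 5′ UTR (chr1:45925465-45925492, - strand): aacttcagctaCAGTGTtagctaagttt
Tfrc 3′ UTR, element 1 (chr16:32631220-32631247, + strand): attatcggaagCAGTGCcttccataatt
Tfrc 3′ UTR, element 2 (chr16:32631599-32631626, + strand): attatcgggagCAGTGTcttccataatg
Tfrc 3′ UTR, element 3 (chr16:32631664-32631691, + strand): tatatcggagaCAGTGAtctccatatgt
Tfrc 3′ UTR, element 4 (chr16:32631711-32631738, + strand): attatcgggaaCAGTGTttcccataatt
The 6 other members had no match to this pattern in the transcript searched, which says only that these letters were not found there. Slc11a2, for example, is known for an element in the 3′ UTR of some of its isoforms.

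Depth ran from 23316107 to 38965078 counted fragments in a mouse. Levels are given as CPM, the share of a mouse's counts scaled to a common total, and 3 counts, the floor used here, made between 0.0745 and 0.137 CPM on the TMM scale used for levels. The microglial label was checked on Tmem119, P2ry12, Sall1, Siglech and Fcrls, which were all detected. Their summed level had a median of 3407 CPM at P6, 9890.3 at P15 and 10309 in 8-week mice, and 5 of 5 were higher at 8 weeks than at P6. Markers of dividing cells fell from a median sum of 1141 CPM at P6 to 276 at P15 and 155 at 8 weeks (7 of 7 lower at 8 weeks than at P6), and those of neural progenitors and immature neurons from 1631 to 316 and 100.4 (7 of 7 lower). In bulk samples a smaller number of cells of a type and less RNA per cell cannot be told apart, and the part of these shifts in the changes below was not tested. Some libraries stood apart in how short and long transcripts were represented. A transcript length index, the mean log2 level of the 3524 genes of shortest exonic length minus that of the 3520 longest after centring each gene, ran from -0.50 in P15 female 2 to 0.40 in P15 male 1 and 0.60 in 8-week male 4, the 3 mice farthest from the mean of their age.

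**Figure D1:**
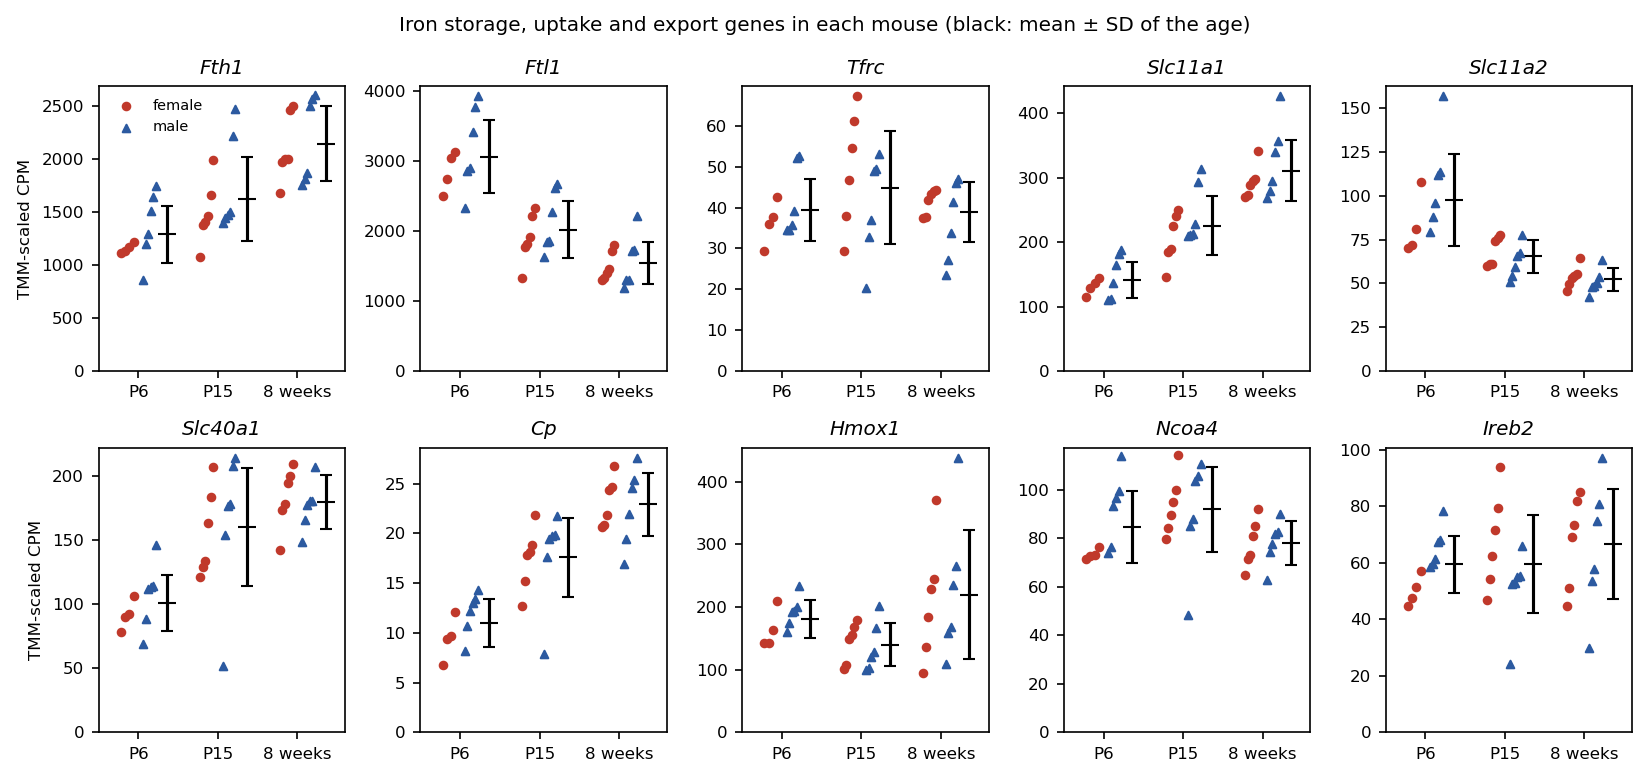
TMM-scaled CPM of each iron gene (y axis, from 0) in each of the 34 mice by age (x axis), with females as red circles, males as blue triangles, and the mean ± SD of the age in black. The 8-week mice lie wholly above the P6 mice for Slc11a1 and Cp, as for 14.8% of all genes. They lie wholly below them for Ftl1 and Slc11a2, also as for 14.8%. P15 male 1 is the lowest P15 mouse for Tfrc, Slc40a1, Cp, Ncoa4 and Ireb2.

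From P6 to 8 weeks Slc11a1, Cp, Slc40a1 and Fth1 rose and Ftl1 and Slc11a2 fell, while Tfrc, Hmox1, Ncoa4 and Ireb2 passed the test in neither direction. The heavy and light chains of ferritin thus changed in opposite directions. The test was edgeR's quasi-likelihood test at a Benjamini-Hochberg adjusted p (FDR) below 0.05 over all 17612 genes, and "rose", "fell", "higher" and "lower" are used in that sense. So many genes differed between these ages that the count itself is ordinary: 4 of 10 members rose, beside 37.8% of all genes tested, and 2 of 10 fell, beside 36.6%. From P6 to P15 4 members rose (background 30.4%) and 2 fell (31.4%), and from P15 to 8 weeks 4 rose (24%) and 3 fell (23.9%). The median log2 fold change of the members from P6 to 8 weeks was 0.26, beside 0.04 over all genes tested. No member passed the test against a 2-fold change in any comparison of ages, beside 11.5% of all genes for higher and 12.4% for lower levels at 8 weeks than at P6, 4.87% and 4.85% at P15 than at P6, and 1.2% and 3.07% at 8 weeks than at P15. Slc11a1 came nearest, with a 2-fold-test FDR of 0.0975 from P6 to 8 weeks. Without the 3 mice of extreme transcript length index, 5 members rose and 2 fell from P6 to 8 weeks, 5 rose and 2 fell from P6 to P15, and 3 rose and 3 fell from P15 to 8 weeks. The added rises were those of Ireb2 from P6 to 8 weeks (log2 fold change 0.26, FDR 0.0355) and of Ncoa4 from P6 to P15 (0.25, FDR 0.0053), and the rise lost was that of Fth1 from P15 to 8 weeks.

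**Figure D2:**
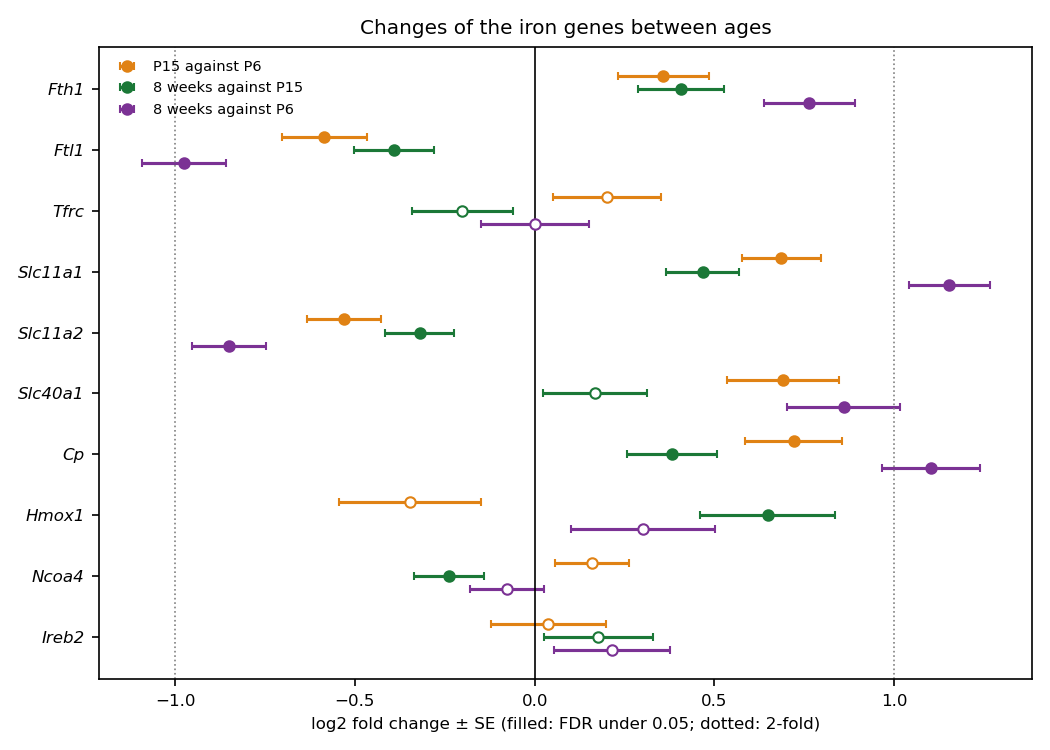
log2 fold changes (x axis) of the 10 iron genes (y axis) between ages, with SE as bars, from the edgeR fit of 34 mice. Filled points had an FDR under 0.05 and dotted lines mark a 2-fold change. The P6 to 8 weeks values run from -0.98 for Ftl1 to 1.15 for Slc11a1, and the 3 Tfrc points and the 3 Ireb2 points are open.

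Fth1 (ENSMUSG00000024661, GRCm38 chr19:9980598-9985098, + strand) encodes the heavy chain of ferritin, which oxidises iron on its way into the shell. Levels ran from 858 to 1747 CPM at P6 (median 1206), from 1069 to 2464 at P15 (median 1467) and from 1680 to 2599 at 8 weeks (median 2000). All but 1 of the 10 P6 mice lay below the lowest 8-week mouse, whereas the P15 mice overlapped both other ages. Fth1 rose by a log2 fold change of 0.76 ± 0.13 (SE) from P6 to 8 weeks (FDR 3.12e-06), of which 0.36 ± 0.13 fell between P6 and P15 (FDR 0.015) and 0.41 ± 0.12 between P15 and 8 weeks (FDR 0.00563). The later step was 0.28 (FDR 0.0518) when the 3 mice of extreme transcript length index were left out.

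Ftl1 (ENSMUSG00000050708, chr7:45457944-45459884, - strand) encodes the light chain, which helps the iron core to form. The mice ran from 2329 to 3931 CPM at P6 (median 2971), from 1321 to 2664 at P15 (median 1880) and from 1183 to 2213 at 8 weeks (median 1432). Each of the 10 P6 mice was above every 8-week mouse, which held in the same direction for 14.8% of all genes. P6 female 6, the mouse left out, had 1335 CPM when scaled with all 35 mice, within the 8-week range. Ftl1 fell by 0.98 ± 0.12 on the log2 scale from P6 to 8 weeks (FDR 9e-09), with a change of -0.59 ± 0.12 from P6 to P15 (FDR 7.63e-05) and of -0.39 ± 0.11 from P15 to 8 weeks (FDR 0.0049). The genome holds near-identical copies of this gene, and 60.4% of the 869 stretches of 100 bases (the read length) in its transcript also occur in another annotated gene, against 0.964% for Fth1. The counting settings of the study do not include the option for reads with several equally good places, which the program leaves out unless told otherwise, so the level of Ftl1 is uncertain. Copies that passed the filter changed the same way from P6 to 8 weeks: Ftl1-ps1, which is 99.56% identical to Ftl1 over 910 aligned bases, by -0.96 ± 0.12 (FDR 2.76e-08), Gm15590 by -1.25 ± 0.16 (FDR 4.39e-08) and Gm12164 by -0.81 ± 0.18 (FDR 0.000205). Their counted levels were far below that of Ftl1, with a median for Ftl1-ps1 of 11.2 CPM at P6 and 5.68 CPM at 8 weeks. The levels and changes of the copies are uncertain for the same reason as those of Ftl1.

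The ratio of the chains separated all 3 ages, which neither gene did alone. The log2 ratio of Fth1 to Ftl1 averaged -1.26 ± 0.10 in P6 mice (SD, n = 10), -0.33 ± 0.14 in P15 mice (n = 12) and 0.48 ± 0.10 in 8-week mice (n = 12). It ran from -1.44 to -1.14 at P6, from -0.60 to -0.11 at P15 and from 0.23 to 0.58 at 8 weeks, so that no mouse of one age reached the values of another. In the reads counted, Fth1 was below Ftl1 in each of the 22 P6 and P15 mice and above it in each of the 12 at 8 weeks. The ratio was examined after the values of both genes had been seen and is given without a test. It is a ratio within a library and needs no scaling between mice, but its position relative to 0 depends on how many Ftl1 reads were not counted because of the copies. Both genes together held 0.459% ± 0.058 of all counts in P6 mice (SD, n = 10), 0.352% ± 0.051 in P15 mice (n = 12) and 0.355% ± 0.049 in 8-week mice (n = 12), with overlapping ranges.

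**Figure D3:**
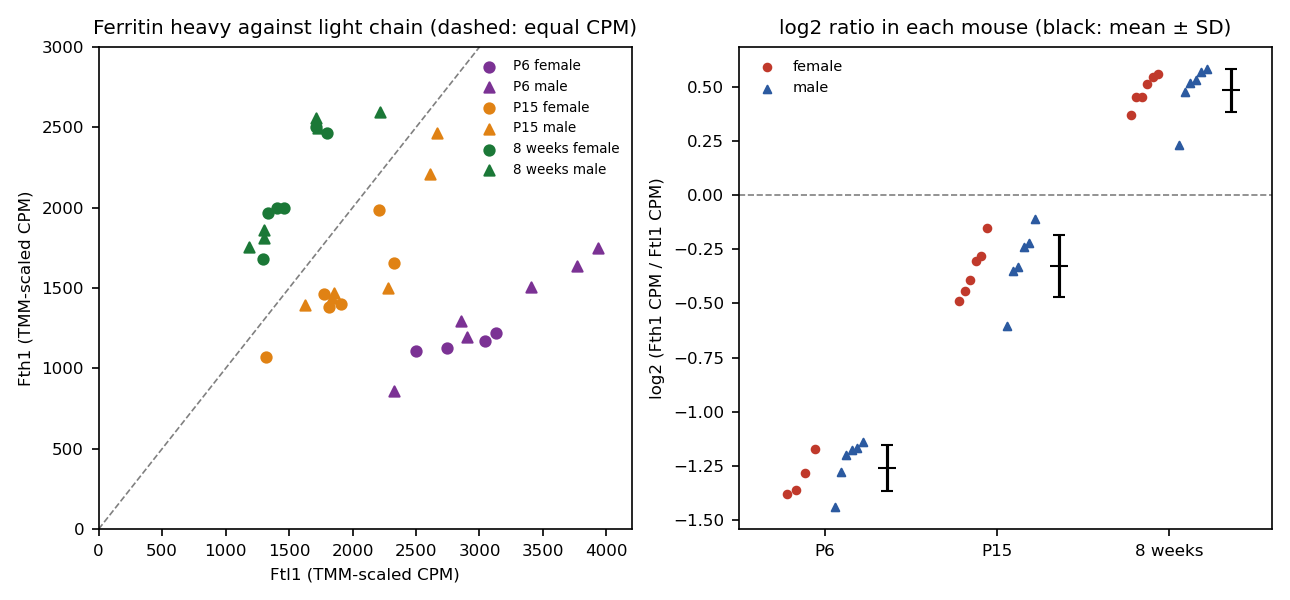
Left, Fth1 against Ftl1 in TMM-scaled CPM, 1 point per mouse, coloured by age, with a dashed line of equal CPM. Right, log2 of Fth1 CPM over Ftl1 CPM by age, with females as circles, males as triangles and the mean ± SD in black. The ages form 3 separate groups, with means of -1.26, -0.33 and 0.48.

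Tfrc (ENSMUSG00000022797, chr16:32608920-32632794, + strand) encodes the transferrin receptor and carries the 4 elements of its 3′ UTR shown above. Levels of Tfrc ran from 29.3 to 52.7 CPM at P6 (median 36.8), from 20.3 to 67.4 at P15 (median 47.9) and from 23.5 to 47.0 at 8 weeks (median 41.5). The 3 ages overlapped almost wholly, and the P15 mice were the most spread. None of the changes passed the test, with log2 fold changes of 0.20 ± 0.15 (FDR 0.247) from P6 to P15, -0.20 ± 0.14 (FDR 0.24) from P15 to 8 weeks and 0.00 ± 0.15 (FDR 0.998) from P6 to 8 weeks. Tfrc was lowest in P15 male 1 and 8-week male 4, the mice with the highest transcript length index. With that index as a covariate, chosen after the data were seen, Tfrc was higher at P15 than at P6 (0.37, FDR 0.00105) and at 8 weeks than at P6 (0.31, FDR 0.00656).

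Slc11a1 (ENSMUSG00000026177, chr1:74375195-74386062, + strand), also known as Nramp1, encodes a divalent metal transporter of the phagosome membrane of macrophages. Its change from P6 to 8 weeks was the largest of the 10 members, at 1.15 ± 0.11 beside 1.10 ± 0.14 for Cp. It was not the largest in either step alone. Levels of Slc11a1 ran from 109.5 to 188 CPM at P6 (median 136), from 145 to 314 at P15 (median 219) and from 268 to 427 at 8 weeks (median 295). The lowest 8-week mouse was above the highest P6 mouse, as for 14.8% of all genes. Slc11a1 rose in both steps, by 0.69 ± 0.11 from P6 to P15 (FDR 2.9e-06) and by 0.47 ± 0.10 from P15 to 8 weeks (FDR 0.000426), which made 1.15 ± 0.11 over both (FDR 8.6e-11). Other phagocytes of blood and brain borders were represented as well. The summed level of 8 border macrophage and monocyte markers (Mrc1, Pf4, F13a1, Lyve1, Ms4a7, Ccr2, Ly6c2 and Plac8) had medians of 921 CPM at P6 (692 to 1501), 781 at P15 (265 to 934) and 435 at 8 weeks (326 to 650.1), with 2 higher and 4 lower at 8 weeks than at P6. The higher ones were the monocyte genes Ccr2, with log2 fold changes of 1.46 from P6 to P15 and 1.60 from P15 to 8 weeks, and Ly6c2, with 0.74 and 1.96. From P6 to 8 weeks Lyve1 (-2.57), Pf4 (-1.56), Mrc1 (-1.29) and F13a1 (-0.60) fell, and Plac8 (0.27, FDR 0.215) and Ms4a7 (0.05, FDR 0.772) did not pass the test. Neutrophil markers (S100a8, S100a9, Ngp, Camp and Retnlg) had median sums of 22.2 CPM (15.7 to 69.4), 36.3 CPM (15.3 to 96.4) and 74.6 CPM (29.8 to 201) at the 3 ages, with 3 of 5 higher and 0 lower at 8 weeks than at P6. None of these markers was at 0 in every mouse, and their part in the Slc11a1 values was not tested.

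Slc11a2 (ENSMUSG00000023030, chr15:100387898-100425072, - strand), also known as Dmt1, encodes the transporter that moves iron out of endosomes. Levels of Slc11a2 ran from 69.9 to 157 CPM at P6 (median 91.9), from 50.7 to 77.7 at P15 (median 63.3) and from 42.0 to 64.6 at 8 weeks (median 51.4). The P6 and 8-week mice did not overlap, as for 14.8% of all genes in this direction, and P6 male 1 was the highest mouse of all. P6 female 6, the mouse left out, had 60.7 CPM, below the highest 8-week mouse. Slc11a2 fell where its relative rose, with a change of -0.53 ± 0.10 from P6 to P15 (FDR 4.44e-05), of -0.32 ± 0.10 from P15 to 8 weeks (FDR 0.0076) and of -0.85 ± 0.10 over both (FDR 8.42e-09).

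Slc40a1 (ENSMUSG00000025993, chr1:45908068-45926523, - strand) encodes ferroportin. Its level ran from 68.9 to 146 CPM at P6 (median 99.2), from 51.8 to 214 at P15 (median 170) and from 142 to 209 at 8 weeks (median 179). The P15 range was stretched downwards by P15 male 1, and the other 5 males at P15 ran from 154 to 214 CPM. Slc40a1 rose by 0.69 ± 0.16 from P6 to P15 (FDR 0.000293) and was 0.86 ± 0.16 higher at 8 weeks than at P6 (FDR 1.14e-05). From P15 to 8 weeks the difference was 0.17 ± 0.14 and did not pass the test (FDR 0.343), and it was 0.03 without the 3 mice of extreme transcript length index. Endothelial markers (Cldn5, Esam, Pecam1, Flt1 and Slco1c1) had a similar step, with a median sum of 89.2 CPM at P6 (45.6 to 137), 199.9 at P15 (129 to 295) and 202 at 8 weeks (146 to 316). Of these 5, 3 were higher and 0 lower at P15 than at P6 and again at 8 weeks than at P6, none was at 0 in every mouse, and their part in the Slc40a1 values was not tested. The microglial markers given above had such a step as well, with 5 of 5 higher at P15 than at P6, and so did the astrocyte markers given beside Cp, with 3 of 5 higher.

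Cp (ENSMUSG00000003617, chr3:19957054-20009145, + strand) encodes ceruloplasmin, the copper-bearing ferroxidase that oxidises exported iron so that transferrin can bind it. It was low, running from 6.81 to 14.3 CPM at P6 (median 11.4), from 7.90 to 21.8 at P15 (median 18.5) and from 16.9 to 27.6 at 8 weeks (median 23.2). The 8-week mice lay wholly above the P6 mice, as for 14.8% of all genes. Cp rose by 0.72 ± 0.14 from P6 to P15 (FDR 3.19e-05), by 0.38 ± 0.13 from P15 to 8 weeks (FDR 0.0132) and by 1.10 ± 0.14 over both (FDR 1.59e-08). In brain Cp is best known as an astrocyte gene, and the summed level of 5 astrocyte markers (Gfap, Aqp4, Aldh1l1, Slc1a3 and Gja1) had medians of 620 CPM at P6 (329 to 862), 1428 at P15 (397 to 2625) and 1266 at 8 weeks (837 to 2454), with 3 of 5 markers higher and 1 lower at 8 weeks than at P6. None of these markers was at 0 in every mouse, and their part in the Cp values was not tested.

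Hmox1 (ENSMUSG00000005413, chr8:75093621-75100589, + strand) encodes haem oxygenase, which frees iron from haem. It was the most variable member at 8 weeks. Its level ran from 142 to 234 CPM at P6 (median 183), from 100.04 to 201 at P15 (median 138) and from 94.3 to 437 at 8 weeks (median 207), so that 8-week mice were both the lowest and the highest of all. The highest were 8-week male 6 with 437 CPM and 8-week female 5 with 370 CPM. Hmox1 rose by 0.65 ± 0.19 from P15 to 8 weeks (FDR 0.00556). The values of -0.35 ± 0.20 from P6 to P15 (FDR 0.13) and of 0.30 ± 0.20 from P6 to 8 weeks (FDR 0.172) did not pass the test. Scaled by library size alone, the first of these was -0.48 (FDR 0.028). Red blood cells are a source of haem, and the summed level of 4 of their markers (Hbb-bs, Hbb-bt, Hba-a1 and Hba-a2) had medians of 1985 CPM at P6, 4909 at P15 and 1931 at 8 weeks, highest at the age where the Hmox1 median was lowest, and their part in the Hmox1 values was not tested.

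Ncoa4 (ENSMUSG00000056234, chr14:32159865-32179855, + strand) encodes the receptor that delivers ferritin to lysosomes for breakdown. Its level ran from 71.6 to 114 CPM at P6 (median 76.5), from 48.4 to 114 at P15 (median 92.2) and from 62.6 to 92.0 at 8 weeks (median 79.3), with overlap of all ages. Ncoa4 was lower at 8 weeks than at P15 by a narrow margin (-0.24 ± 0.10, FDR 0.0429), and the FDR rose to between 0.0535 and 0.0747 when 8-week female 1, 8-week female 6, 8-week male 4, 8-week male 5, P15 female 4, P15 male 5 or P15 male 6 was left out. The call was also lost with no filter (FDR 0.0611), in the compared groups alone (0.0667), with the replicate block (0.0681) and by limma-voom (0.0739). No change from P6 passed the test, with 0.16 ± 0.10 at P15 (FDR 0.179) and -0.08 ± 0.10 at 8 weeks (FDR 0.5). Without P15 male 1, the lowest mouse, the P15 value was 0.22 (FDR 0.0167). Ncoa4 shares 48.7% of its 3244 stretches of 100 bases with another annotated gene, Gm6768, so its level is uncertain for the same reason.

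Ireb2 (ENSMUSG00000032293, chr9:54863789-54912530, + strand) encodes iron-regulatory protein 2, one of the proteins that bind the hairpins shown above. Its level ran from 44.8 to 78.2 CPM at P6 (median 59.1), from 24.2 to 93.9 at P15 (median 55.1) and from 29.7 to 97.1 at 8 weeks (median 71.4). The ages overlapped, with log2 fold changes of 0.04 ± 0.16 (FDR 0.849) from P6 to P15, 0.18 ± 0.15 (FDR 0.344) from P15 to 8 weeks and 0.21 ± 0.16 (FDR 0.229) from P6 to 8 weeks. Its lowest values were in P15 male 1 and 8-week male 4, and its highest P15 value was in P15 female 2. With the transcript length index as a covariate, Ireb2 was higher at 8 weeks than at P6 (0.51, FDR 0.000181) and than at P15 (0.28, FDR 0.0152).

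**Figure D4:**
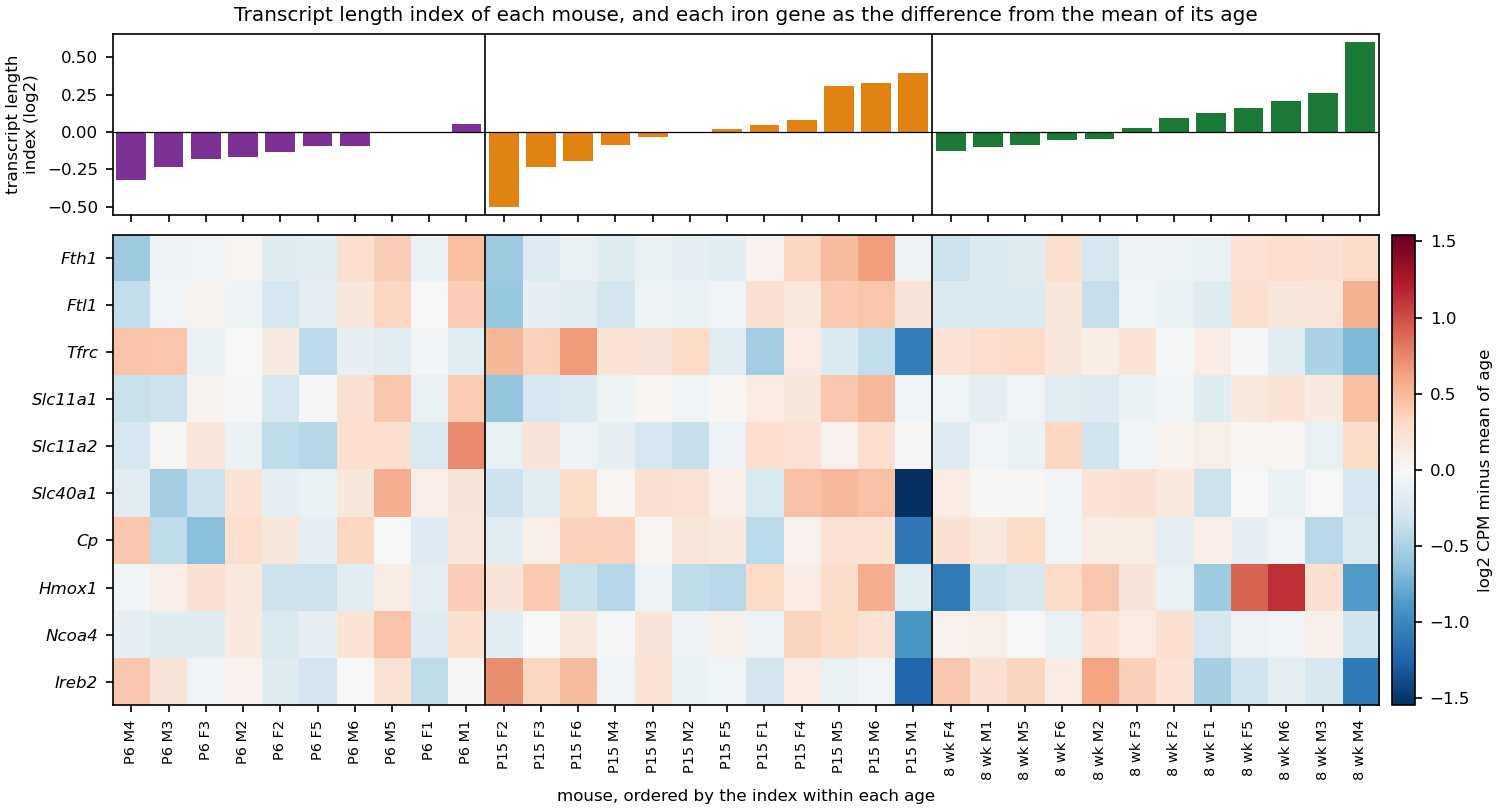
Top, transcript length index (log2) of each mouse as bars coloured by age. Bottom, log2 CPM of each iron gene minus its mean over the mice of that age, red above and blue below, with mice in the same order in both panels. P15 male 1 and 8-week male 4, at the high end of the index, are blue for Tfrc and Ireb2, and P15 female 2, at the low end, is blue for Fth1, Ftl1 and Slc11a1.

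The mice at the ends of the index were also extreme for several members. At its high end, 8-week male 4 had the highest 8-week level of Fth1, Ftl1 and Slc11a1 and the lowest of Tfrc, Ncoa4 and Ireb2. At its low end, P15 female 2 had the lowest P15 level of Fth1, Ftl1 and Slc11a1 and the highest of Ireb2. By the exonic length the index uses, Ftl1 (1340 bases) and Hmox1 (1751) were in its short class of at most 1984 bases, Slc40a1 (9000), Ncoa4 (9365), Ireb2 (9479) and Cp (9566) were in its long class of at least 7076.2 bases, and Fth1 (3469), Slc11a1 (3705), Tfrc (6185) and Slc11a2 (6354) were in neither. The mean index was -0.12 ± 0.11 in P6 mice (SD, n = 10), 0.01 ± 0.26 in P15 mice (n = 12) and 0.09 ± 0.21 in 8-week mice (n = 12), so it moved with age as well, and its part in the changes was not tested apart from the covariate fit. In that fit the 6 members called from P6 to 8 weeks kept their direction and their call.

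Per kilobase of representative transcript, the ferritin chains were the most abundant members by an order of magnitude. At P6 Ftl1 had 3162 ± 533 CPM per kilobase (SD, n = 10) and Fth1 1385 ± 290, and at 8 weeks Fth1 had 2305 ± 379 (n = 12) and Ftl1 1587 ± 308. The chains did not overlap at P6 and overlapped at 8 weeks. The level of Ftl1 is uncertain because of its copies, and the order at 8 weeks turns with it. If only reads from the stretches of 100 bases found in no other gene had been counted, a setting added with the values known, Ftl1 would have 4010.2 ± 779 CPM per kilobase at 8 weeks and Fth1 2327 ± 382. This setting does not take into account that reads were paired and counted as fragments. Gm22133, a gene sharing stretches with Ftl1, overlaps 8.13% of its exonic bases on the same strand and was not listed as a copy. Next came Hmox1 with 115 ± 19.0 CPM per kilobase at P6 and Slc11a1 with 61.2 ± 12.2, without overlap, whereas at 8 weeks Hmox1 (140 ± 65.4) and Slc11a1 (134 ± 20.3) overlapped. Slc11a2 (32.2 ± 8.69), Slc40a1 (29.9 ± 6.57) and Ncoa4 (25.3 ± 4.44 as counted, 49.4 ± 8.65 over its unshared stretches) had overlapping ranges at P6. At 8 weeks Slc40a1 (53.3 ± 6.25) stood clear of Ncoa4 (23.3 ± 2.74) as counted, though not of the 45.5 ± 5.34 that Ncoa4 would have over its unshared stretches, and Slc11a2 (17.3 ± 2.20) overlapped Ireb2 below it and Ncoa4 above it as counted, but not Ncoa4 over unshared stretches (36.5 to 53.6). At the low end, Ireb2 with 10.3 ± 1.75 and Tfrc with 8.06 ± 1.57 overlapped at P6 above Cp with 2.68 ± 0.60, and at 8 weeks Ireb2 (11.5 ± 3.36), Tfrc (7.96 ± 1.52) and Cp (5.6 ± 0.77) overlapped each with its neighbour.

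None of the 10 members passed edgeR's test between males and females at P6, P15 or 8 weeks, beside 0.0511%, 0.0681% and 0.114% of all genes tested at those ages. DESeq2 and limma-voom called 0 members as well. At an unadjusted p under 0.05 there were 2 members at P6 by edgeR, 2 by DESeq2 and 1 by limma-voom, and 0 by each tool at both later ages. Over all 17612 genes edgeR gave 1250 such genes among P6 mice, 3200 among P15 mice and 518 among 8-week mice. The members at P6 were Slc11a2, with 79.0 to 157 CPM in 6 males and 69.9 to 108 CPM in 4 females (log2 fold change 0.38 ± 0.15, FDR 0.696), and Ncoa4, with 73.7 to 114 CPM in males and 71.6 to 76.4 CPM in females (0.33 ± 0.15, FDR 0.696). At P6 the log2 fold change of males against females was above 0 for all 10 members, with a median of 0.24, beside 8845 of 17612 genes and a median of 0.00 over all genes tested. At P15 it was above 0 for 5 of 10 members (median -0.02) and at 8 weeks for 5 of 10 (median -0.01). The interaction of sex and age was called for 0 members and for 0 of 17612 genes, and 1 member had an unadjusted p under 0.05 by edgeR, by DESeq2 and by limma-voom, beside 2083 of 17612 genes by edgeR.

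The wider pathway was described on a list of 70 further iron genes in 6 roles, of which 62 passed the filter. From P6 to 8 weeks 22 rose and 21 fell (background 37.8% and 36.6%), from P6 to P15 23 rose and 18 fell (30.4% and 31.4%), and from P15 to 8 weeks 13 rose and 19 fell (24% and 23.9%). The median log2 fold change from P6 to 8 weeks was 0.05, beside 0.04 over all genes. The 6 tested genes of the role storage and chaperones (Pcbp1, Pcbp2, Pcbp3, Pcbp4, Glrx3 and Bola2) went one way. All 6 were lower at 8 weeks than at P6, 5 of 6 at P15 than at P6 and 5 of 6 at 8 weeks than at P15. None of them is a ferritin chain, and the chains Fth1 and Ftl1 are members given above. Of the 9 genes of iron sensing and transcriptional control, 6 rose and 1, Aco1, fell from P6 to 8 weeks. The other roles split, with 5 higher and 3 lower of 11 in transferrin and iron import, 3 and 2 of 11 in haemoglobin and haem handling, 2 and 2 of 4 among ferroxidases and the hepcidin axis, and 6 and 7 of 21 in mitochondrial iron, haem and iron-sulfur cluster synthesis. Aco1, which encodes iron-regulatory protein 1 and is named here after its value was seen, had a log2 fold change of -0.56. Its P6 and 8-week mice did not overlap, as for 14.8% of all genes in this direction.

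**Figure D5:**
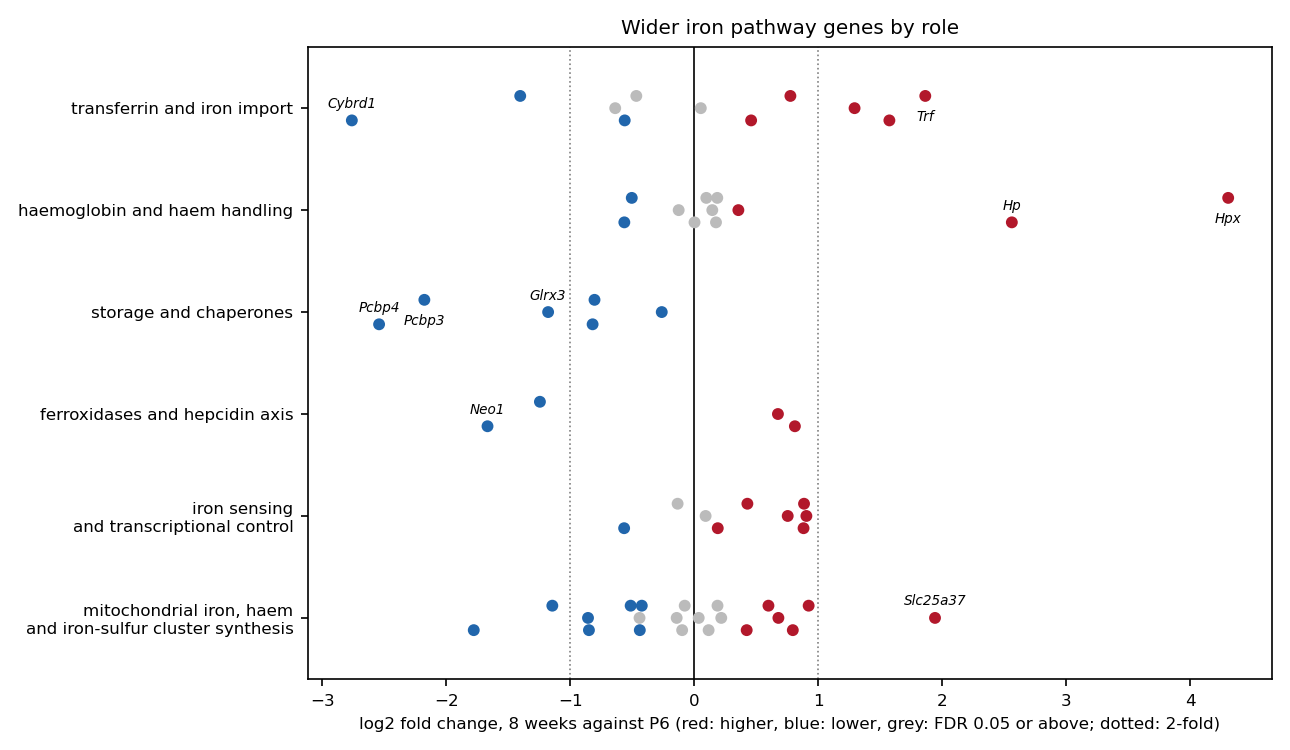
log2 fold changes from P6 to 8 weeks (x axis) of the 62 tested genes of the wider iron pathway by role (y axis), red for higher, blue for lower and grey for an FDR of 0.05 or above. The genes named in the plot passed the test against a 2-fold change in this comparison. All 6 tested genes of storage and chaperones, none of them a ferritin chain, lie to the left of 0. The Hpx value rests on 0 to 4 counts per mouse at P6.

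Past the test against a 2-fold change from P6 to 8 weeks were 4 higher and 6 lower genes of the 62 (background 11.5% and 12.4%). Trf, the gene of transferrin itself, ran from 339 to 625 CPM at P6, from 770 to 2089 at P15 and from 1442 to 2488 at 8 weeks. Trf at P6 did not overlap either later age, as for 5.25% of all genes at P15 and 14.8% at 8 weeks in this direction. It rose by 1.86 ± 0.13 from P6 to 8 weeks (FDR 2.69e-14), of which 1.61 ± 0.13 came before P15 (FDR 1.67e-12). In brain Trf is best known from oligodendrocytes, and the summed level of 7 oligodendrocyte lineage markers had medians of 422 CPM at P6 (245 to 621), 1405 at P15 (813 to 3116) and 537 at 8 weeks (360 to 1923). Of the 7 markers 4 were higher and 2 lower at P15 than at P6, 4 higher and 3 lower at 8 weeks than at P6, and 0 higher and 5 lower at 8 weeks than at P15. The Trf change from P15 to 8 weeks was 0.26 ± 0.11 (FDR 0.0629), and the part of these markers in the Trf values was not tested.

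Slc25a37, mitoferrin 1, which carries iron into mitochondria, also stepped up before P15, from a median of 44.3 CPM at P6 (36.1 to 75.0) to 162 at P15 (76.8 to 210) and 178 at 8 weeks (135 to 228). The P6 mice lay wholly below both other ages, as for 5.25% of all genes at P15 and 14.8% at 8 weeks. The rise was 1.78 ± 0.14 by P15 (FDR 9.08e-13) and 1.94 ± 0.14 by 8 weeks (FDR 5.82e-14). Alas2, the first enzyme of haem synthesis in red cell precursors, had medians of 139, 336 and 120 CPM at P6, P15 and 8 weeks, and fell by 1.64 ± 0.24 on the log2 scale from P15 to 8 weeks (FDR 2.24e-06). The red blood cell markers named above were all higher at P15 than at P6 and all lower at 8 weeks than at P15, and their part in the Alas2 and Slc25a37 values was not tested.

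Hp, haptoglobin, which binds free haemoglobin and is abundant in neutrophils, had medians of 1.43 CPM at P6, 1.67 at P15 and 6.75 at 8 weeks (2.67 to 28.4), a rise of 2.56 ± 0.30 from P6 to 8 weeks (FDR 3.51e-09) and of 2.19 ± 0.27 from P15 (FDR 7.29e-08). The neutrophil markers given beside Slc11a1 also had their highest median sum at 8 weeks, and their part in the Hp values was not tested. Hp was the only one of the 62 genes called between the sexes, higher in males at 8 weeks (mean log2 CPM 3.82 in 6 males and 2.22 in 6 females, log2 fold change 1.73 ± 0.36, FDR 0.0363). That call was lost, with an FDR of up to 0.219, when any of the 6 8-week females, 8-week male 3, 8-week male 4, 8-week male 5, 8-week male 6, P15 male 6 or P6 female 3 was left out. The call was also lost under 6 of 11 other alternatives, with an FDR of up to 0.121. Hpx, hemopexin, which binds free haem, was between 0 and 4 counts in each P6 mouse and had a median of 0.264 CPM at P15 and 0.542 CPM at 8 weeks, so it passed the test at levels near the floor.

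Among the genes that fell past the 2-fold test, Cybrd1, a ferric reductase, went from a median of 12.6 CPM at P6 (5.48 to 19.2) to 1.70 at 8 weeks (1.32 to 2.81), a change of -2.76 ± 0.25 (FDR 1.61e-11). Glrx3, a glutaredoxin of cytosolic iron handling, was the tightest, with 90.1 to 101 CPM at P6, 48.2 to 61.3 at P15 and 36.5 to 55.2 at 8 weeks, and its change was -1.18 ± 0.06 (FDR 2.72e-18). The poly(C)-binding proteins Pcbp4 (-2.54 ± 0.32, FDR 1.71e-08) and Pcbp3 (-2.18 ± 0.30, FDR 1.44e-07) belong to a family that delivers iron to ferritin, a role best known from Pcbp1. Neo1, neogenin, a receptor of the hepcidin pathway that also guides axons, had a change of -1.67 ± 0.22 (FDR 7.18e-08). Pcbp4 ran from 36.9 to 166 CPM, Pcbp3 from 6.87 to 39.7 CPM and Neo1 from 44.3 to 184 CPM at P6. P6 male 5 was the lowest P6 mouse for each of these and for Cybrd1. The neuronal markers Syt1, Nefl, Snap25, Stmn2, Rbfox3 and Tubb3 had median sums of 693 CPM at P6 (276 to 926), 315 at P15 and 110 at 8 weeks (48.4 to 212), of which 4 fell and 1 rose between P6 and 8 weeks. The part of these and of the progenitor markers in the fall of Cybrd1, Pcbp3, Pcbp4 and Neo1 was not tested.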

How the data were processed

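Directional mRNA libraries of CD45+ve cells were sequenced as paired-end reads. Per the labels and the methods of the study, STAR placed the reads on GRCm38/mm10 and they were counted as fragments by strand with featureCounts (Subread), without its option for multi-mapped reads; the annotation release and any trimming of these reads are not given in the sources used here. The table that the authors deposited holds raw counts for each mouse, neither filtered nor normalised. Of 55401 identifiers, 55141 were named from GENCODE M21, which also gave coordinates, transcripts and lengths.

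The filter stated by the study (0.5 CPM in 5 or more mice) was applied to the 34 mice, and libraries were scaled by TMM. edgeR 4.0.16 (R 4.3.3, glmQLFit, robust) was fitted to 34 mice with 1 mean for each of 6 age and sex groups. The fit was also run on data simulated from its own means and spreads. Age contrasts averaged the sexes, tests were two-sided, and glmTreat tested against a 2-fold change. The test planned for counts replaced the limma-voom fit of the study, and its random effect of mouse was not fitted because each mouse has 1 microglial mRNA library. Labels give 1 mouse per library and name no batch, so p-values measure the spread between these mice. No library was a copy of another: chi-square per gene was at least 12.8 in the 85 pairs of mice that share a group. Floors of 3 counts cover counting error only.

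CPM are counts scaled by TMM to a common total, and log2 CPM used a prior count of 2. Copies are genes aligned by BLAST+ 2.17.0+ at 90% identity or more over at least 300 bases. CPM per kilobase divides TMM-scaled CPM by the representative transcript's length. The members, the 70 pathway genes, the 63 markers and the tests were chosen with earlier results of these data known. All members are named, with the pathway genes past the 2-fold test (at most 3 per role and direction; 1 is not reported here) and the copies of Ftl1 and Fth1 that passed the filter; the copy of Ncoa4, Aco1, the Fth1 to Ftl1 ratio and the transcript length index were added after seeing values. The genes most like a member were to be named only for members past the 2-fold test, and there were 0.

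Alternatives were all 35 mice, DESeq2 size factors, library size alone, DESeq2 1.42.0, limma-voom (limma 3.58.1), no filter, at least 10 counts in every mouse, the compared groups alone, a replicate block, each mouse left out in turn and the counts of copies added. Added after seeing the data were the copies of Ncoa4 and Slc11a1, the transcript length index as a covariate, the 3 mice of extreme index left out, and levels per kilobase over unshared stretches.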

Additional observations from a re-analysis of the deposited data

Results flagged for a closer look

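In 60 sets of 4 to 6 mice (10 members in 6 age and sex groups), the highest and lowest mouse were checked for a gap to the next one that is large against the range of the set (Dixon's 95% limit). Chance alone flags about 5% of such sets. There were 3 flags, no more than that share of the 60 sets, all of P15 male 1 as the lowest of 6 males. Cp was 7.90 CPM in this mouse and between 17.6 and 21.7 CPM in the other 5 males at P15. Ireb2 was 24.2 CPM against 52.5 to 66.0 CPM, and Slc40a1 was 51.8 CPM against 154 to 214 CPM. This mouse also had the highest transcript length index at P15 (0.40). Without it the rises from P6 to P15 were 0.79 for Cp and 0.79 for Slc40a1 on the log2 scale, and Ireb2 changed by 0.10 (FDR 0.534).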

How the results depend on the processing

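Of the 19 called changes of members between ages, 646 values with 1 mouse left out and 247 values under the other alternatives (the 2-fold test aside) all kept their direction, and 639 and 242 of them kept the call. The calls lost were that of Ncoa4 from P15 to 8 weeks, with no filter (-0.25, FDR 0.0611), the compared groups alone (-0.23, FDR 0.0667), the replicate block (-0.23, FDR 0.0681), limma-voom (-0.22, FDR 0.0739) and 7 mice left out in turn, and that of Fth1 from P15 to 8 weeks without the 3 mice of extreme index. The test against a 2-fold change left 0 members in either direction in each comparison of ages, and in the wider list 3 higher and 0 lower genes from P6 to P15, 1 and 1 from P15 to 8 weeks, and 4 and 6 from P6 to 8 weeks. Among the 11 changes not called, 9 values passed the test under other alternatives and 1 with a mouse left out. They were those of Tfrc, Ireb2, Ncoa4 and Hmox1 given beside these genes, Hmox1 from P6 to P15 in the compared groups alone (-0.32, FDR 0.0362) and Ncoa4 from P6 to 8 weeks with library size alone (-0.21, FDR 0.0451). Values near 0 that were not called changed sign. Tfrc from P6 to 8 weeks was -0.049 with all 35 mice, -0.0036 with DESeq2 size factors and with DESeq2, -0.14 with library size alone, -0.0081 with no filter, -0.035 with at least 10 counts in every mouse, -0.0093 in the compared groups alone, -0.017 with the replicate block and -0.00072 with limma-voom, and between -0.086 and 0.047 with 1 mouse left out. Ireb2 from P6 to P15 was -0.0038 with all 35 mice, -0.082 with library size alone, -0.031 with the replicate block and -0.0043 with limma-voom, and between -0.043 and 0.10 with 1 mouse left out. The cause was not tested. Library size alone moved the median log2 fold change of all genes to -0.14 from P6 to P15 and to -0.10 from P6 to 8 weeks, and no called member changed direction under it. The log2 ratio of Fth1 to Ftl1 cannot be moved by scaling, filters or the choice of test. With P6 female 6 added, the copies of both genes added or the 3 mice of extreme index left out it stayed within 1 SD of its mean, at -1.27 to -1.23 for P6, -0.33 to -0.30 for P15 and 0.48 to 0.51 for 8 weeks.

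Same-numbered mice are different animals. Their deviations from the group means correlated above 0.1 in 6 of 10 pairs for P6 and P15, 5 of 12 for P15 and 8 weeks and 2 of 10 for P6 and 8 weeks. Pairs of unlike number were not correlated, so whether mice of the same number were handled together was not tested. With the number as a replicate block, 4 members were higher and 2 lower in each comparison of ages, and 0 were called between the sexes. Depth was not limiting for the members, whose lowest count in a mouse was above the floor, and was for Hpx at P6.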
